A study of Mus musculus with 272 samples.

Results

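Bidirectional promoters are stretches of DNA from which a pair of neighbouring protein-coding genes is read in opposite directions. Here they were taken from the gene rows of the GENCODE M21 annotation on the mouse genome build mm10: a gene on the minus strand and a gene on the plus strand, with the 5′ end of the minus-strand gene to the left of that of the plus-strand gene and at most 1000 bp away, and a region reaching from 1 kb left to 1 kb right of the 5′ ends. This gave 754 pairs that use 1487 of the 21938 protein-coding genes, or 6.78% of them. Each pair is written with its minus-strand gene first. The median distance between the 5′ ends was 129.5 bp, with quartiles of 67 and 240 bp and a range of 1 to 987 bp, and 618 pairs (82.0%) lay at most 300 bp apart. As 21 genes belonged to more than 1 pair, 42 pairs shared a gene with another one and were not separate promoters.

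The data were peak lists from muscle stem cells (MuSCs, the satellite cells that regenerate skeletal muscle) of mice, 2 replicates each of ATAC-seq, which reads open chromatin, and of ChIP-seq for the histone marks H3K4me3, H3K27ac and H3K27me3. They belong to a study of the outcomes of CRISPR-Cas9 cutting in MuSCs, and these 8 chromatin libraries are among its 272 samples. The cells came from Pax7Cas9 mice, in which a Cre driven by *Pax7* turns on Cas9 and EGFP from the *Rosa26* locus, and were sorted from hindlimb muscle as GFP-positive cells, so that all 8 libraries carry the nuclease. The labels of these libraries give skeletal muscle as the tissue and no age, sex or strain, and nothing says whether the 2 replicates came from separate mice. No condition was compared within a feature. The label of the cells was checked against marker genes: a peak within 1 kb of the 5′ end in both replicates was listed for H3K4me3 at 13 of 13 MuSC markers, *Pax7*, *Myf5* and *Myod1* among them, at 3 of 10 endothelial, 5 of 10 fibro-adipogenic, 3 of 10 myofibre and 4 of 10 neuronal markers, for H3K27ac at 11, 1, 3, 3 and 0 of them, and for ATAC-seq at 12, 5, 4, 8 and 4. Over all protein-coding genes the same count gave 56.0% for H3K4me3, 42.2% for H3K27ac and 59.3% for ATAC-seq. None of the MuSC markers lies in a bidirectional pair. The 3 myofibre markers with H3K4me3 all do, and 0 of the 7 myofibre markers outside pairs had H3K4me3.

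In mammals such pairs are common, and the promoter between the genes is typically a CpG island without a TATA box, from which RNA polymerase starts in both directions. Open promoters lose nucleosomes at the start sites, H3K4me3 marks the nucleosomes on either side of active or poised starts, H3K27ac marks active promoters and enhancers, and H3K27me3 is laid down by Polycomb at silent genes. Genes for DNA repair, mitochondria and other functions that every cell needs are known to be frequent in divergent pairs, while genes of a single tissue are rare there.

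The stretches between the 5′ ends show what these promoters look like. Of 24 pairs described as bidirectional in textbooks and reviews, 12 met the rule. For 9 of the other 12 the plus-strand 5′ end lay to the left of the minus-strand 5′ end. Their gene rows overlapped head to head by 21 to 341 bp, except at *Fanci*/*Polg*, where the 5′ ends lay 74433 bp apart. The following 6 members of at most 300 bp are printed because their genes are the best known: *Brca1*/*Nbr1* (chr11:101551956-101552148), *Lig4*/*Abhd13* (chr8:9977687-9977706), *Wrap53*/*Trp53* (chr11:69580256-69580358), *Acd*/*Pard6a* (chr8:105701103-105701147), *Mrps12*/*Sars2* (chr7:28741821-28741991) and *Col4a4*/*Col4a3* (chr1:82586850-82586920). Each runs 5′ to 3′ on the plus strand of the RefSeq copy of GRCm38 (mm10), from the base after one 5′ end to the base before the other, outside both genes as annotated. Capitals mark matches on either strand to any of the 12 motifs given with the motif shares further on.
Brca1/Nbr1: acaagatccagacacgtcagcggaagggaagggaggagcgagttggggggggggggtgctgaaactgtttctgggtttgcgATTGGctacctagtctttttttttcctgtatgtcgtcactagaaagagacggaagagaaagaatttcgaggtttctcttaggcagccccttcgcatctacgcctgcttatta
Lig4/Abhd13: acgggctaccgtagcatgaa
Wrap53/Trp53: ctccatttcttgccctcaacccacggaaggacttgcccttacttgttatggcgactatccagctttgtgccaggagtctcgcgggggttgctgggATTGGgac
Acd/Pard6a: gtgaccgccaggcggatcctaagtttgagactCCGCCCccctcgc
Mrps12/Sars2: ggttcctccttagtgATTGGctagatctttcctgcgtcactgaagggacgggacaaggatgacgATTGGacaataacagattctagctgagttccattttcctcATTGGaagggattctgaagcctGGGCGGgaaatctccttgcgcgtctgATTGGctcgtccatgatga
Col4a4/Col4a3: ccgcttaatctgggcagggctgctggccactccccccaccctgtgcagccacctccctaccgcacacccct

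These 6 stretches were from 20 bp (*Lig4*/*Abhd13*) to 193 bp (*Brca1*/*Nbr1*) long, and their GC content ran from 49.7% in *Mrps12*/*Sars2* to 69.0% in *Col4a4*/*Col4a3*. The one between the genes of a mitochondrial ribosomal protein and the mitochondrial seryl-tRNA synthetase, *Mrps12*/*Sars2*, held 4 CCAAT boxes, the element bound by NF-Y, and 1 GC box, the element bound by Sp factors. A single CCAAT box stood in *Brca1*/*Nbr1* and in *Wrap53*/*Trp53*, and a single GC box in *Acd*/*Pard6a*. No motif was found in *Lig4*/*Abhd13* or *Col4a4*/*Col4a3*.

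A further 5 stretches belong to the pairs at the extremes of the measurements below: the pair with the highest H3K4me3 enrichment, *Zfp91*/*Lpxn* (chr19:12796127-12796192), with the highest H3K27ac enrichment, *Dnajb4*/*Fubp1* (chr3:152210303-152210421), with the highest ATAC-seq enrichment, *Cep128*/*Tshr* (chr12:91384410-91384562), with the highest H3K27me3 enrichment beside H3K4me3, *Nr2e1*/*Ostm1* (chr10:42583633-42583821), and a pair with no peak in any list, *Ftsj3*/*Psmc5* (chr11:106256080-106256153). They are written in the same way.
Zfp91/Lpxn: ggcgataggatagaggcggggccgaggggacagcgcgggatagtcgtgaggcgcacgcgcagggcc
Dnajb4/Fubp1: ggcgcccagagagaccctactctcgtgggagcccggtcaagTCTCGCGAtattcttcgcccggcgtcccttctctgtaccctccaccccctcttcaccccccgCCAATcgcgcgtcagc
Cep128/Tshr: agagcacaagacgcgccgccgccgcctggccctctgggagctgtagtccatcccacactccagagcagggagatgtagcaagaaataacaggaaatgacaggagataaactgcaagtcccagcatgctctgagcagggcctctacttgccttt
Nr2e1/Ostm1: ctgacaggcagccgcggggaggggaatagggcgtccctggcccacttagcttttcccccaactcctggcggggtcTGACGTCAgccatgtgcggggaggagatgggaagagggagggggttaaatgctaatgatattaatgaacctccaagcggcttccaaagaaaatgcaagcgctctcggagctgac
Ftsj3/Psmc5: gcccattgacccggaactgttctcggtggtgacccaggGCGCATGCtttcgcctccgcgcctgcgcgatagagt

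The first comparison asked how often these promoters carried each feature. A region counted as marked where a listed peak overlapped it by 1 bp or more. ATAC-seq peaks were listed at 94.3% of the 754 pairs in replicate 1 and 93.4% in replicate 2 (93.8% ± 0.656, SD, n = 2), H3K4me3 peaks at 93.6% and 93.4% (93.5% ± 0.188), H3K27ac peaks at 88.7% and 87.1% (87.9% ± 1.13), and H3K27me3 peaks at 1.59% and 2.12% (1.86% ± 0.375). In both replicates, 704 pairs had an ATAC-seq peak and 704 an H3K4me3 peak (93.4% each), where the background over all protein-coding genes, counted 1 kb either side of a 5′ end, was 59.3% for ATAC-seq and 56.0% for H3K4me3. H3K27ac was listed in both replicates at 656 pairs (87.0%, background 42.2%) and H3K27me3 at 12 (1.59%, background 3.41%). The open and active features therefore exceeded their background by far more than the replicates differed, and H3K27me3 lay below its own.

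**Figure D1:**
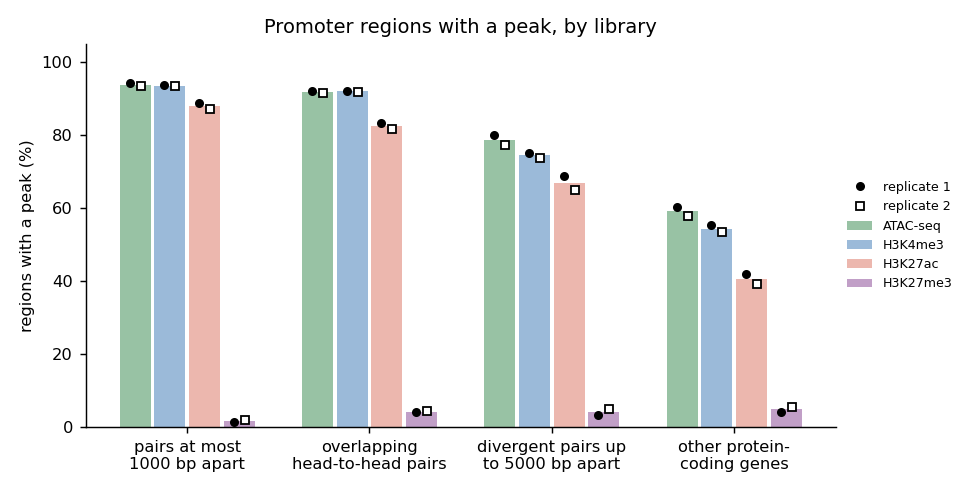
Percent of regions with a listed peak (vertical axis) for each feature, in the 754 pairs, in overlapping head-to-head pairs, in divergent pairs farther apart and in other protein-coding genes; bars are the mean of 2 libraries, and the filled circle and open square are replicates 1 and 2. The pairs stand between 87.1% and 94.3% for ATAC-seq, H3K4me3 and H3K27ac, and other genes between 39.3% and 60.5%.

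The regions of pairs were slightly longer (median 2130.5 bp) than the 2001 bp around a single 5′ end, and measured over the latter the 1487 paired genes gave almost the same shares. Against the 20451 other protein-coding genes, the pairs were higher by 34.6 ± 1.12 percentage points for ATAC-seq, 39.1 ± 1.24 for H3K4me3 and 47.2 ± 0.825 for H3K27ac, and lower by 3.07 for H3K27me3 (-3.07 ± 0.721, SD of the 2 replicates' differences). Pairs of head-to-head genes whose annotated rows overlap by at most 1000 bp came near the members for ATAC-seq (91.8% of 457 pairs) and H3K4me3 (92.0%). They were lower for H3K27ac, at 82.6%, a difference of 5.33 ± 0.0423 percentage points, and higher for H3K27me3, at 4.27% ± 0.155 against 1.86% ± 0.375. Divergent pairs 1001 to 5000 bp apart lay between the members and other genes for ATAC-seq (78.8% of 412 pairs), H3K4me3 (74.5%) and H3K27ac (67.0%), although their regions are longer. Promoters are not replicates of a condition, and with 2 libraries a group the smallest two-sided p of an exact permutation test is 0.333, so no p-value accompanies these differences.

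Most pairs carried the 3 open and active features together. ATAC-seq, H3K4me3 and H3K27ac peaks were all present in both replicates at 656 pairs (87.0%), which means that every pair with H3K27ac also had the other 2, and at 7849 other genes (38.4%). H3K4me3 without H3K27ac or H3K27me3 was seen at 43 pairs (5.70%), against 12.3% of other genes. No peak of any feature reached both replicates at 43 pairs (5.70%), against 40.7% of other genes, and ATAC-seq peaks alone were left at 5.

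The enrichment at marked pairs is given as the fold enrichment of the strongest peak in the region, the authors' MACS2 value at the summit. For ATAC-seq its median over 704 pairs was 15.7 in replicate 1 and 14.6 in replicate 2, against 13 and 11.8 at the 11631 other genes with peaks in both replicates. H3K4me3 medians were 28.5 and 20.1 at pairs and 23.7 and 17 at other genes, and H3K27ac medians 16.1 and 13.1 against 14.6 and 11.8. The medians of the pairs were thus the higher ones in each of these 6 libraries, by less than the quartiles spread: the middle 50% of pairs covered 21.7 to 34.8 for H3K4me3 in replicate 1, and that of other genes 14.9 to 32. Both groups are read through a peak list, so a promoter without a peak has no value. The strongest H3K4me3 peak was wider at pairs than at other genes. Its median width was 1979.5 bp in replicate 1 and 1642.5 bp in replicate 2 at pairs, and 1599 and 1294 bp at other genes. At overlapping head-to-head pairs the median folds of both marks were higher than at the members. They were 29.3 and 21.3 for H3K4me3 and 18.01 and 14.42 for H3K27ac. The ATAC-seq medians of that group were lower, at 14.5 and 13.5. Its strongest H3K4me3 peaks were about as wide, with medians of 1916 and 1638.5 bp. High and wide H3K4me3 peaks were thus not particular to the members.

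Replicates ranked the marked pairs alike, with a Spearman's rho of 0.841 for ATAC-seq (704 pairs), 0.887 for H3K4me3 (704) and 0.902 for H3K27ac (656), as a description across promoters that share their libraries. Within a replicate the H3K4me3 and H3K27ac folds of a pair rose together (rho of 0.455 and 0.473), whereas ATAC-seq folds followed neither mark, with rho between -0.098 and -0.024. The distance between the 5′ ends was not reflected in the fold either, with rho between -0.089 and 0.041 over the 6 libraries.

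The second comparison asked where the features lay relative to the 2 start sites. An H3K4me3 peak that covered both 5′ ends in one piece was listed at 661 pairs (87.7%) in replicate 1 and 617 (81.8%) in replicate 2, and in both replicates at 81.8%. A single ATAC-seq peak did so at 550 (72.9%) and 576 (76.4%), and a single H3K27ac peak at 510 (67.6%) and 426 (56.5%). Separate peaks over the 2 ends were rare for H3K4me3, with 8 and 20 pairs, and for H3K27ac, with 23 and 21, and less so for ATAC-seq, with 74 and 52. A peak over one 5′ end and none over the other was seen for H3K4me3 at 25 and 47 pairs, and for H3K27ac at 80 and 109.

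**Figure D2:**
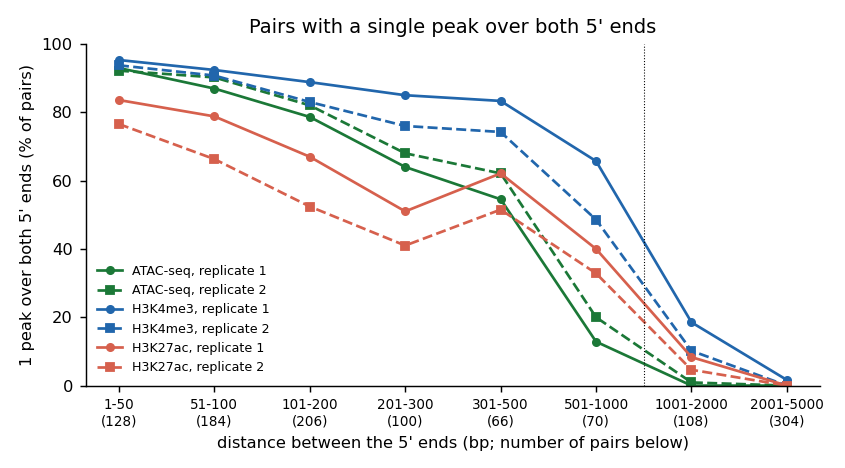
Percent of divergent pairs with 1 peak that covers both 5′ ends (vertical axis), by the distance between the 5′ ends in bp (horizontal axis, number of pairs in parentheses), for 3 features and both replicates; points right of the dotted line are pairs farther apart than the rule allows. H3K4me3 goes from 95.3% and 93.8% at 1 to 50 bp to 65.7% and 48.6% at 501 to 1000 bp.

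Coverage by a single peak went down with distance. A single peak can cover both ends only where it is wider than the gap, so part of this fall is set by peak width. The strongest peak at marked pairs had a median width of 583 and 665 bp for ATAC-seq and of 1387.5 and 1172 bp for H3K27ac. At 1 to 50 bp (128 pairs) a single H3K4me3 peak lay over both ends in 95.3% and 93.8% of pairs, and at 501 to 1000 bp (70 pairs) in 65.7% and 48.6%. For ATAC-seq the same bins gave 93.0% and 92.2%, and then 12.9% and 20.0%. H3K27ac fell in replicate 1 from 83.6% to 51.0% at 201 to 300 bp and stood at 62.1% at 301 to 500 bp, where the bin holds 66 pairs, with the same turn in replicate 2. Beyond the rule, at 1001 to 2000 bp (108 pairs), a single H3K4me3 peak covered both ends of 18.5% and 10.2%. The share of pairs with any H3K4me3 peak in both replicates changed far less over these distances, from 96.1% at 1 to 50 bp to 87.1% at 501 to 1000 bp. The members nearest the limit were *Btf3l4*/*Txndc12* at 987 bp, with H3K27ac folds of 41.4 and 38.2, and *Asphd1*/*Sez6l2* at 981 bp, with H3K4me3 folds of 7.0 and 5.5 and no H3K27ac peak. The nearest pairs outside were *Serpina7*/*4930513O06Rik* at 1007 bp, with no peak of the 3 features, and *Gpr108*/*Trip10* at 1009 bp, with H3K4me3 folds of 34.8 and 26.9.

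The summits of the strongest peaks showed the order of the features within a promoter. The ATAC-seq summit lay between the 5′ ends in 40.2% and 47.7% of 704 pairs and was a median of 90.5 and 86.5 bp from their midpoint. H3K4me3 summits lay between the ends in 3.69% and 3.27% of pairs, with a median of 275.5 and 265 bp from the midpoint, and H3K27ac summits in 7.01% and 8.23%, with 267.25 and 268.5 bp. The rest fell on either gene about equally, 338 on the minus-strand and 340 on the plus-strand gene for H3K4me3 in replicate 1. The summit was in the same place in both replicates for 75.9% of pairs in ATAC-seq, 87.9% in H3K4me3 and 84.8% in H3K27ac, and on opposite genes for 10.8% in H3K4me3. ATAC-seq summits were thus nearer the midpoint than those of the marks, although most of them also lay inside one of the genes.

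**Figure D3:**
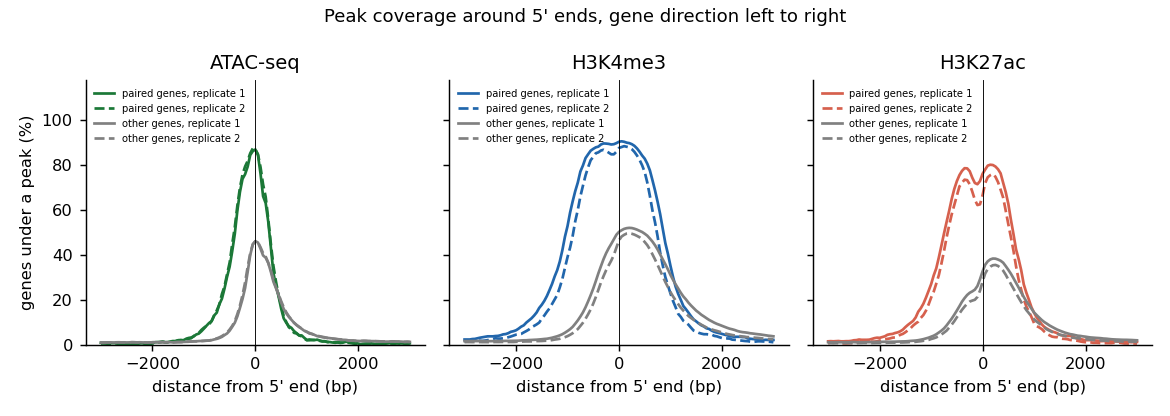
Percent of genes whose position at a given distance from the 5′ end lies under a peak (vertical axis), with the gene running to the right of 0 (horizontal axis, bp), for paired genes in colour and other genes in grey, replicate 1 solid and replicate 2 dashed. At 500 bp upstream H3K4me3 covered 87.2% and 83.7% of paired genes and 25% and 18.3% of other genes.

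H3K4me3 was one-sided around the 20451 other genes and not around paired genes. The other genes include those of overlapping head-to-head pairs and of divergent pairs farther apart. In the 1 kb upstream of the 5′ end, H3K4me3 peaks covered 81.8% and 74.9% of bases at paired genes and 26.6% and 20.9% at other genes, a difference of 54.6 ± 0.857 percentage points. In the 1 kb downstream they covered 75.1% and 66.9% at paired genes and 46.4% and 41.8% at other genes. The ratio of upstream to downstream coverage was 1.09 and 1.12 at paired genes and 0.57 and 0.50 at other genes. The upstream side of a paired gene holds its partner, so that the same bases count for both genes and part of the difference is set by the rule. Among genes with H3K4me3 at their own promoter in both replicates, coverage upstream was 87.6% and 80.3% for 1387 paired genes and 49.5% and 39.2% for 10893 others, so that the difference was 39.6 percentage points.

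H3K27ac dipped just upstream of paired genes, where ATAC-seq was high. At paired genes H3K27ac covered 72.8% and 66.4% of genes 500 bp upstream and 78.6% and 73.5% at 350 bp upstream. It covered 71.5% and 62.2% at 100 bp upstream and 79.8% and 74.6% at 100 bp downstream. ATAC-seq covered 34.8% and 36.6% at 500 bp upstream, 84.5% and 85.3% at 100 bp upstream and 16.2% and 17.5% at 500 bp downstream.

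Single pairs with the highest enrichment differed from feature to feature. H3K4me3 was highest, by the lower of the 2 replicates, at *Zfp91*/*Lpxn* (chromosome 19, 67 bp apart), a zinc-finger ubiquitin ligase and the focal adhesion protein leupaxin, with folds of 42.8 and 40.4 in replicates 1 and 2. It was followed by *Baz2b*/*March7* (54.4 and 40.0), a bromodomain protein and a membrane ubiquitin ligase, and by *Zbtb25*/*Zbtb1* (53.6 and 39.1), a pair of zinc-finger transcription factors. *Ccni*/*2010109A12Rik* (53.6 and 39.1), with the gene of cyclin I, and *Safb2*/*Safb* (53.7 and 38.9), paralogues that bind RNA and the nuclear scaffold, completed the first 5. All 5 also had H3K27ac, at folds of 31.8 to 37.2 in replicate 1 and 20.6 to 29.1 in replicate 2, above the medians of 16.1 and 13.1. Their ATAC-seq folds, 9.0 to 17.5 and 7.6 to 12.8, lay below the third quartiles of the pairs (19.2 and 18.1).

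H3K27ac was highest at *Dnajb4*/*Fubp1* (58.6 and 44.5), an Hsp40 co-chaperone and a protein that binds the far upstream element of *Myc*, and at *Ppp1r15a*/*Plekha4* (51.7 and 39.7), the first of which is the stress-induced phosphatase subunit that acts on eIF2α. *Btf3l4*/*Txndc12* (41.4 and 38.2), *Atp6v1a*/*Naa50* (46.8 and 35.7) and *Sart3*/*Iscu* (50.6 and 35.7) came next, where *Atp6v1a* encodes the catalytic subunit of the vacuolar proton pump and *Iscu* the scaffold of iron-sulphur clusters. ATAC-seq was highest at *Cep128*/*Tshr* (30.1 and 30.1), a centriole protein and the thyrotropin receptor, then at *Stap2*/*Mpnd* (33.9 and 29.5), *Acad8*/*Thyn1* (28.5 and 31.3) and *Rpa3*/*Umad1* (29.7 and 28.4). *Rpa3* also pairs with *Gm45062*, at the same peak. *Stap2*/*Mpnd* had no H3K4me3 or H3K27ac peak in any library, and the remaining pairs had H3K27ac folds of at most 9.6. The 3 features thus put different pairs first, and no pair was among the first 5 of more than 1 of them.

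The 10 textbook members described here were all marked by ATAC-seq and H3K4me3 in both replicates, and 9 of them by H3K27ac. *Pdcd10*/*Serpini1* (691 bp apart), the genes of a cerebral cavernous malformation protein and of neuroserpin, had the highest H3K4me3 folds of the 10 by the lower replicate, 37.2 and 31.8, with H3K27ac at 31.4 and 25.9. *Brca1*/*Nbr1*, a tumour suppressor of homologous recombination beside an autophagy receptor, had H3K4me3 at 20.0 and 15.4 and H3K27ac at 37.9 and 28.7. *Gart*/*Son*, an enzyme of purine synthesis and a splicing cofactor, read 27.9 and 19.5 for H3K4me3 and 36.1 and 30.7 for H3K27ac. *Brca1*/*Nbr1* and *Gart*/*Son* had the highest H3K27ac folds of the 10 in both replicates.

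**Figure D4:**
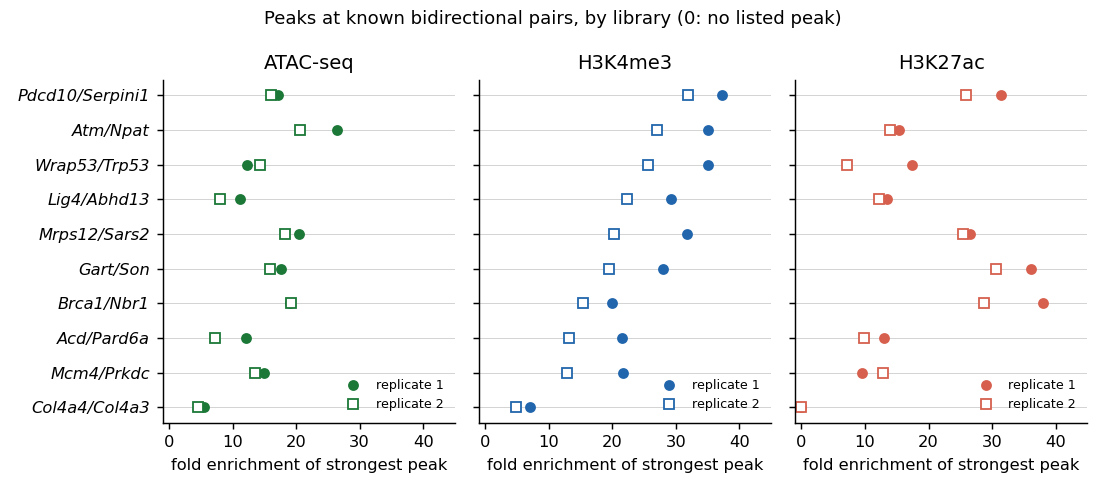
Fold enrichment of the strongest peak (horizontal axes) at 10 textbook pairs, ordered by H3K4me3, for ATAC-seq, H3K4me3 and H3K27ac; filled circles are replicate 1, open squares replicate 2, and 0 means that no peak was listed. *Col4a4*/*Col4a3* is the lowest in all 3 panels, with H3K4me3 at 7.0 and 4.8 and no H3K27ac peak.

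*Col4a4*/*Col4a3*, which encodes basement membrane collagen chains of kidney, lung and cochlea, was lowest in all 3 features, with ATAC-seq at 5.4 and 4.6, H3K4me3 at 7.0 and 4.8 and no H3K27ac peak. *Wrap53*/*Trp53*, a telomerase and Cajal body protein beside the p53 tumour suppressor, had H3K4me3 at 35 and 25.5, and its H3K27ac folds, 17.5 and 7.1, were farther apart between the replicates than those of the other textbook pairs described. *Mrps12*/*Sars2* had H3K27ac at 26.4 and 25.4 and H3K4me3 at 31.8 and 20.3. *Acd*/*Pard6a*, a shelterin subunit and a polarity protein, read 21.5 and 13.2 for H3K4me3.

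Of the genes that the study targets or perturbs, 1 of the 16 listed belongs to a pair. *Lig4*, the DNA ligase of non-homologous end joining, starts 21 bp from *Abhd13* on chromosome 8, a hydrolase gene. The promoter had ATAC-seq folds of 11.2 and 8.1, H3K4me3 folds of 29.3 and 22.3 and H3K27ac folds of 13.4 and 12.1, and no H3K27me3 peak. Its H3K4me3 values lay just above the medians of all pairs (28.5 and 20.1) and its ATAC-seq values below the first quartiles (12.3 and 11.4).

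Genes of DNA repair and replication took part in pairs more often than genes at large: 43 of 146 (29.5%), against 6.78% of all protein-coding genes. Their 45 pairs all had H3K4me3 in both replicates, 44 had ATAC-seq, 40 had H3K27ac and 0 had H3K27me3, close to the shares over all 754 pairs. The median of their lower H3K4me3 folds was 18, against 20.1 for all pairs with a peak, and textbook pairs such as *Brca1*/*Nbr1* and *Atm*/*Npat* are among them. H3K4me3 was highest at *Recql*/*Golt1b* (35.2 and 32.6), a RecQ helicase beside a Golgi transport gene, at *Abhd12*/*Gins1* (31.1 and 27.9), with a subunit of the replicative helicase, and at *Atm*/*Npat* (35.1 and 27), the kinase of the double-strand break response beside the coactivator of histone genes. It was lowest at *1300017J02Rik*/*Topbp1* (4.3 and 3.6), the scaffold that activates ATR, where no ATAC-seq or H3K27ac peak was listed, at *Rad54l*/*Pomgnt1* (7.5 and 4.4) and at *Mospd2*/*Fancb* on the X chromosome (10.2 and 7.1). *Mcm4*/*Prkdc*, a subunit of the replicative helicase beside the catalytic subunit of DNA-PK, had H3K4me3 at 21.6 and 12.9.

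Mitochondrial genes were also frequent. Of 176 genes of the mitochondrial ribosome and respiratory chain, 39 (22.2%) lay in pairs, against 6.78% of all protein-coding genes. All 39 pairs had ATAC-seq and H3K4me3 and 37 had H3K27ac in both replicates. The shares over all 754 pairs were near these, at 93.4% for ATAC-seq and H3K4me3 and 87.0% for H3K27ac. *Atp5h*/*Kctd2*, with a subunit of ATP synthase, was highest (43.2 and 29.8) and *Ndufa1*/*Rnf113a1* on the X chromosome lowest (16.3 and 10.4), where H3K27ac was listed in replicate 1 only (4.6). Of the 25 mitochondrial import genes, 5 (20.0%) lay in pairs, from *Timm23*/*Parg* (31.4 and 20.6) to *Sdhd*/*Timm8b* (27.1 and 12.4). Of the 37 tRNA synthetase genes, 5 (13.5%) lay in pairs, from *S100pbp*/*Yars* (46.7 and 27.7) to *Mrps12*/*Sars2*. All 10 pairs of these 2 lists had ATAC-seq, H3K4me3 and H3K27ac, as most of the 754 pairs did.

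Among genes of RNA polymerases and the spliceosome, 15 of 62 (24.2%) lay in pairs, all with the 3 features, from *Polr3c*/*Rnf115* (38.2 and 27.7) to *Ccdc157*/*Sf3a1* (16.6 and 12.1). Of the 91 genes of cilia and centrosomes 20 did (22%), from *Cep170*/*Sdccag8* (49.7 and 32.6) to *Cep128*/*Tshr* (15.8 and 8.5), the pair with the highest ATAC-seq fold. Of 56 chaperone genes 8 lay in pairs (14.3%), from *Tsacc*/*Cct3* (38.4 and 31.5), with a subunit of the CCT chaperonin, to *Sirt1*/*Dnajc12* (16.2 and 15.1). Of 76 cytosolic ribosomal protein genes 8 did (10.5%), from *Rnf151*/*Rps2* (27.3 and 27.2) to *Zwilch*/*Rpl4* (27.6 and 15.5). *Rnf151*/*Rps2* had neither an ATAC-seq nor an H3K27ac peak in either replicate. Of the 394 Zfp zinc-finger genes 20 lay in pairs (5.08%, near the 6.78% of all protein-coding genes), and their 18 pairs ran from *Zfp91*/*Lpxn* to *Grik5*/*Zfp574* (12.2 and 9.2).

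The lists of regulated or tissue-restricted genes differed in how many of their genes lay in pairs, against 6.78% of all protein-coding genes. Of 109 developmental transcription factors 1 lay in a pair, *Sox6*/*1110004F10Rik*, with H3K4me3 at 16.4 and 8.5 and no H3K27ac peak, and of 1202 keratin and olfactory receptor genes 0 did. Of the 10 endothelial markers only *Pecam1*, the adhesion molecule CD31, was a member, and *Pecam1*/*Milr1* had ATAC-seq peaks (8.2 and 9.8) and no H3K4me3, H3K27ac or H3K27me3 peak. Of the 10 myofibre markers 3 lay in pairs. All 3 pairs had H3K4me3 in both replicates, at promoters shared with a partner gene, against 0 of the 7 myofibre markers outside pairs. H3K4me3 stood at 36.1 and 26.5 at *Tbc1d10b*/*Mylpf*, with the fast myosin light chain gene. It stood at 11.7 and 9.3 at *Klc3*/*Ckm*, with the muscle creatine kinase gene. These lists were chosen with results of these data known, and no test of a list was made.

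H3K27me3 was listed in both replicates at 12 pairs. At 10 of them (1.33% of the 754, against a background of 2.46% for both marks over all protein-coding genes) H3K4me3 was listed as well. Of these 10, 5 also had H3K27ac, against 87.0% of all 754 pairs. Among other genes with both marks, 32 had H3K27ac and 489 did not. *Nr2e1*/*Ostm1*, an orphan nuclear receptor of neural stem cells beside a subunit of a lysosomal chloride channel, had the highest H3K27me3 folds by the lower replicate, 5.6 and 6.8, and low H3K4me3, 5.7 and 4.0. *Plag1*/*Chchd7*, a zinc-finger developmental regulator beside a mitochondrial protein, had H3K27me3 at 5.6 and 5.2 with H3K4me3 at 40.4 and 23.2 and H3K27ac at 9.6 and 5.1, the last on the *Chchd7* side alone. *Klc3*/*Ckm* had H3K27me3 at 6.0 and 3.7. The remaining ones among the first 8 were *Fbxo44*/*Fbxo2*, *Zfyve28*/*Cfap99*, *Ccdc92*/*Zfp664*, *Lsr*/*Fam187b* and *Ddx25*/*Pus3*, with H3K27me3 folds from 3.8 to 5.3, and H3K4me3 from 5.8 at *Lsr*/*Fam187b* to 28.7 at *Ccdc92*/*Zfp664*.

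The H3K27me3 peaks were small, with a median width of 196 bp in replicate 1 and 192.5 bp in replicate 2. With an overlap of at least 200 bp, 5 pairs were left (0.663%, against 1.86% of all protein-coding genes), *Duox2*/*Duoxa2*, *Plag1*/*Chchd7*, *Ccdc92*/*Zfp664*, *Klc3*/*Ckm* and *Nr2e1*/*Ostm1*, and with a −log10 q of at least 5 only *Cryzl1*/*Itsn1* was (0.133%, against 0.260%). *Duox2*/*Duoxa2*, a dual oxidase and its maturation factor, and *Stap2*/*Mpnd* were the 2 pairs with H3K27me3 and without H3K4me3 in both replicates. The H3K27me3 folds of *Stap2*/*Mpnd*, 1.5 and 1.8, lay below the first quartiles of the 12 pairs (4.1 and 3.6).

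Within a pair the marks could lean to one gene. Over the 1 kb inside each gene, the 2 sides of a pair differed by a median of 170 and 212.5 bp of H3K4me3 and by 258 and 267 bp of H3K27ac, and neither strand was favoured, with median H3K27ac coverage in replicate 1 of 633 bp on the minus-strand and 647 bp on the plus-strand gene. The signed difference of a pair was similar in both replicates, with a rho of 0.875 for H3K4me3 and 0.824 for H3K27ac. H3K27ac lay on one gene alone in both replicates at 59 of 656 pairs, and H3K4me3 at 27 of 704.

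The largest H3K27ac differences were complete or nearly so. *Ccdc148*/*Pkp4* had 0 bp on *Ccdc148* and all 1000 bp on *Pkp4*, a plakophilin of cell junctions, in both replicates. *Srsf7*/*Ttc39d* showed the reverse, 1000 bp on the splicing factor gene *Srsf7* and 0 bp on *Ttc39d*. *Ranbp10*/*Tsnaxip1* had 1000 bp on *Ranbp10* in both replicates and 32 and 37 bp on *Tsnaxip1*, named for its partner translin-associated factor X. *Ndufa5*/*Asb15* had 961 and 942 bp on *Ndufa5*, a subunit of respiratory complex I, and 0 bp on *Asb15*, and *Tpcn1*/*Iqcd* had 1000 and 935 bp on *Tpcn1*, a lysosomal ion channel, and 0 bp on *Iqcd*. In each of these 5 pairs both replicates leaned the same way, as the choice of pairs demands.

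On the X chromosome the 20 member pairs had lower histone marks. H3K4me3 was listed in both replicates at 16 of them (80.0%) and H3K27ac at 9 (45%), against 93.7% and 88.1% of the 734 autosomal pairs. The median H3K4me3 fold of the marked X pairs was 13.6 in replicate 1 and 9.4 in replicate 2, against 28.9 and 20.2 on the autosomes, and the highest X values, 20.5 and 13.7, lay below the autosomal medians. Other genes showed the same contrast, 13.5 and 9.8 on the X against 24.3 and 17.4. The ATAC-seq folds of X pairs, 16.9 and 16, were not below those of autosomal pairs, 15.6 and 14.6, although ATAC-seq was listed at 14 of 20. The sex of the mice behind these libraries is not given in the labels, and its part in these values was not tested.

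Clustered histone genes formed pairs more often than any other list, 27 of 67 genes (40.3%, against 6.78% of all protein-coding genes). Of these 14 pairs, 7 had peaks of the open and active features. Over all 754 pairs the shares were 93.4% for ATAC-seq and H3K4me3 and 87.0% for H3K27ac. Their marked pairs ran from *Hist1h2bh*/*Hist1h3f* (20.2 and 19.7) to *Hist1h2bf*/*Hist1h2ad* (18.3 and 7.7). Core histone genes are near-identical copies, so that reads may map to several of them, and reads of low mapping quality had been removed by the authors. How far this lowers their peaks was not tested.

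Pairs without a peak in any of the 8 lists numbered 39 (5.17%), against 36.4% of other genes. They included genes that most cells express, such as *Ftsj3*/*Psmc5*, with a proteasome ATPase, *Psma7*/*Ss18l1*, with a proteasome core subunit, *Alyref*/*Anapc11*, with an mRNA export factor and a subunit of the anaphase-promoting complex, and *Slc27a5*/*Trim28*. These 4, named after their values were seen, lay in stretches free of peaks of all 8 lists of 84747, 77008, 134418 and 28095 bp that held the 5′ ends of 5, 3, 12 and 2 protein-coding genes. *Sirt6*/*Ankrd24* lay in the longest one, 446903 bp with 10 protein-coding 5′ ends. Of the 39 pairs, 28 (71.8%) lay in such stretches of 50000 bp or more, as did 4470 (61.7%) of the 7247 other genes without a peak that had peaks on either side on their chromosome, and the median stretch was 94660 bp for the pairs and 81557 bp for the other genes. The proteasome list as a whole had 6 of 8 pairs marked by each active feature, from *Cep76*/*Psmg2* (31.2 and 23.8) to *Psmd10*/*Atg4a* on the X chromosome (15.4 and 8.1). Over all 754 pairs 93.4% had ATAC-seq, 93.4% H3K4me3 and 87.0% H3K27ac. The authors removed blacklisted regions, which were not analysed here, and the overlap of these stretches with them was not tested.

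The third comparison concerned the sequence, taken as the 300 bases from 250 before to 50 after each 5′ end on the reference genome. Paired genes had a median GC content of 62.7% and a median CpG ratio, observed over expected from the C and G content, of 0.849, against 54.3% and 0.482 at other genes. Genes with H3K4me3 came closer: 63.0% and 0.861 for the 1387 paired and 60.7% and 0.744 for the 10893 others. Without H3K4me3 the ratio was 0.453 at 100 paired genes and 0.195 at 9558 others. In 300 bases centred on the midpoint of a pair, the ratio was 0.859 at the 704 pairs with H3K4me3, 0.474 at the 50 without and 0.745 at the 12 with H3K27me3. The stretches between the 5′ ends of the 730 pairs more than 20 bp apart had a median GC content of 63.1%.

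Motifs of 12 kinds were searched on both strands of the same 300 bases, by exact letters, and none is contained in another. The palindrome TCTCGCGA was found at 5.25% of paired genes, 1.38% of all protein-coding genes and 1.88% of other genes with H3K4me3. AAGATGGC, the core bound by YY1, was found at 8.20%, 2.92% and 3.64%, and CCGGAAGT, bound by ETS factors such as GABPA, at 13%, 4.70% and 6.85%. GCATGCGC, bound by NRF1, was found at 6.72%, 3.71% and 4.99%, the cyclic AMP response element TGACGTCA at 4.51%, 2.43% and 3.43%, and the E-box CACGTG at 11.4%, 7.75% and 10.1%. The GC box GGGCGG (68.9%, 43% and 64.0%) and CCAAT (44.0%, 39% and 37.4%) were the most frequent letters in each of these groups.

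**Figure D5:**
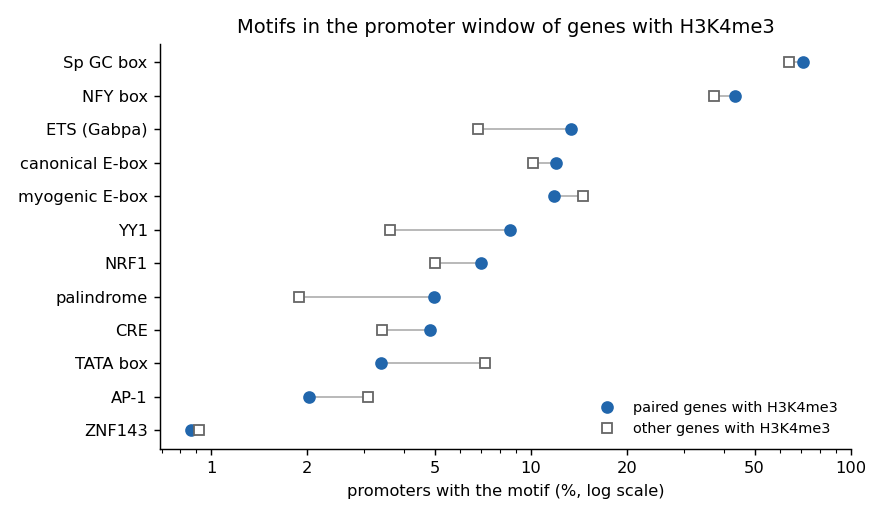
Percent of promoters with each motif on either strand (horizontal axis, log scale) among genes with H3K4me3 in both replicates, filled circles for 1387 paired genes and open squares for 10893 other genes. The YY1 motif stands at 8.58% and 3.64%, the palindrome at 4.97% and 1.88%, and the TATA box at 3.39% and 7.21%.

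The TATA box, the myogenic E-box and AP-1 sites were rarer at pairs. TATAAA was found at 4.10% of paired genes, 12.7% of all protein-coding genes and 7.21% of other genes with H3K4me3. The E-box CAGCTG, bound by MyoD and other myogenic factors, was found at 12.6%, 15.6% and 14.5%, and TGAGTCA, bound by AP-1, at 1.95%, 4.59% and 3.10%, whereas ACTACAAT, part of the ZNF143 motif, was found at 0.941%, 0.834% and 0.918%. The windows of close pairs overlap, so that a match often counts for both genes. GC-rich letters are also more likely in GC-rich windows, and the part of base composition in these shares was not tested.

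The same letters were then set against the peaks of the pairs. In 300 bases centred on the midpoint, the 39 pairs with TCTCGCGA had median H3K27ac folds of 20.7 and 16 where marked, against 15.9 and 12.9 for pairs without it, and H3K4me3 folds of 32.4 and 22.9 against 28.4 and 19.8. They were not marked more often: 34 of them (87.2%) had H3K4me3 in both replicates, against 93.7% of the pairs without the letters, with 89.7% against 93.6% for ATAC-seq and 87.2% against 87.0% for H3K27ac. CCAAT, found at 338 pairs, went with ATAC-seq folds of 17 and 16.1 against 14.6 and 13.7, and with H3K4me3 folds of 27.9 and 19.4 against 29.3 and 20.3. The 33 pairs with TATAAA had H3K4me3 folds of 21.7 and 16.8 against 28.7 and 20.1, and 27 of them (81.8%) had H3K4me3 in both replicates, against 93.9% of the pairs without it. The 88 pairs with CAGCTG had ATAC-seq folds of 15.1 and 14 against 15.8 and 14.8, slightly lower in both replicates. Their H3K4me3 folds, 28.5 and 19.7, were close to the 28.5 and 20.1 of the others. H3K4me3 was listed in both replicates at 88.6% of them, against 94.0% of pairs without it, and H3K27ac at 81.8% against 87.7%. The 513 pairs with GGGCGG were marked more often. H3K4me3 was listed in both replicates at 96.3% of them, against 87.1% of pairs without it, and ATAC-seq at 96.5% against 86.7%. Their H3K4me3 folds, 28.5 and 20.1, were close to the 28.8 and 19.5 of the others. Of the 64 pairs with AAGATGGC 98.4% had H3K4me3, against 92.9%. These are descriptions of letters in a window, and no binding was measured.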

How the data were processed

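Peak lists of 8 mouse MuSC libraries were analysed, a pair of replicates for open chromatin and for each of 3 histone marks. As the methods of the study describe, the authors mapped trimmed reads to mm10 (Trim Galore, BWA), discarded duplicates, poorly mapped reads and blacklisted regions, shifted the ATAC-seq reads to the cut of the Tn5 transposase, and ran MACS2 on each library. For every peak the deposited columns hold a score, the fold at the summit, p-value and q-value as −log10, and the summit position. The authors' fold was used to rank and describe peaks, their −log10 q-value only for a stricter alternative, and their score and p-value were not used. The lists hold no read numbers, so depth is unknown, levels are not comparable between libraries, and a region without a peak may be below detection. Inputs and editing libraries of the series were not analysed here.

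Genes were the 55413 gene rows of GENCODE M21 on the assembled chromosomes. A gene row's 5′ end is the outermost of its transcripts and need not be the start used in MuSCs. Of the listed peaks, 18001 to 140716 per library lay on those chromosomes, except for H3K27me3 with 6064 and 10458. A peak counted from 1 bp of overlap, and a call in both replicates means a peak in each list. Each value was computed per library and is given with the SD of 2 replicates. No test was made, as promoters are not replicates of a condition. Sequences are those of the RefSeq copy of GRCm38. Code for overlaps, pairs, CpG ratios and motifs was tested on simulated data against direct counting. Python 3.11.15, numpy 2.4.6, pandas 2.3.3, scipy 1.17.1 and matplotlib 3.10.9 were used.

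The members, gene lists, motifs and rules were chosen with earlier results of these data known. Named were the 5 pairs with the highest fold for ATAC-seq, H3K4me3 and H3K27ac (clustered histones left out), the 8 highest for H3K27me3 beside H3K4me3, textbook pairs and study genes, the 3 highest and 3 lowest pairs of DNA repair, the highest and lowest marked pair of the other lists, and the 5 with the largest H3K27ac difference between sides. *Atf4* was left out everywhere, and the values of 2 textbook pairs are not reported here. Alternatives were a minimum overlap of 200 bp, a margin of 500 bp, a −log10 q of at least 5, a distance of at most 500 bp, pairs that share no gene, 1 replicate alone, genes with H3K4me3 only, and another sequence window.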

Additional observations from a re-analysis of the deposited data

How the results depend on the processing

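The 7 main values were recomputed under the alternatives, 42 times in all: 26 moved by less than the SD between replicates or, for the CpG ratio, which has no replicates, not in the third decimal, and 16 moved by more. With an overlap of at least 200 bp, ATAC-seq was listed in both replicates at 91.6% of pairs, H3K4me3 at 93.0% and H3K27me3 at 0.663%. With a margin of 500 bp, H3K4me3 stood at 93.0%. With a −log10 q of at least 5, H3K4me3 stood at 93.1%, H3K27ac at 84.1% and H3K27me3 at 0.133%, a stricter threshold that removes peaks by construction. With 5′ ends at most 500 bp apart, H3K4me3 stood at 94.0% and the CpG ratio at 0.868, and for genes in 1 pair only it was 0.848. Among genes with H3K4me3 at their own promoter the upstream difference was 39.6 percentage points. The labels for 1 replicate alone are partly fixed in advance. A share in both replicates can only stay or rise when 1 is dropped. The upstream difference is the mean of 2 replicates, so dropping 1 always moves it by less than their SD. With 1 replicate alone the shares ranged from 93.4% to 94.3% for ATAC-seq, 93.4% to 93.6% for H3K4me3, 87.1% to 88.7% for H3K27ac, 1.59% to 2.12% for H3K27me3 and 81.8% to 87.7% for a single H3K4me3 peak over both 5′ ends, and the upstream difference from 54.0 to 55.3 percentage points. The H3K27me3 share is therefore the one value that depends on the threshold by more than 1.5 times, and the cause beyond the threshold itself was not tested. Depth is unknown, so that absence of a peak is not absence of the mark. No paired analysis was possible because no result comes from a test.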
